A study of Homo sapiens with 12 samples.

Results

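The genes described here encode the protein subunits of the mitochondrial ribosome whose names begin with MRPL (large subunit) or MRPS (small subunit). A gene was included when a row of the array table was annotated to it alone, and where several rows named one gene the row with the highest mean over the arrays was kept. This gave 73 genes of the 18417 genes measured with a row of their own, 48 named MRPL and 25 named MRPS. Another 4 rows named one of these genes together with a neighbour (MRPL51 with SPTLC1, MRPS6 with SLC5A3, MRPS24 with URGCP-MRPS24, MRPS28 with TPD52) and were not used, and MRPS36 was not analysed here.

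RNA came from MDA-MB-231, an established human breast cancer cell line of the triple-negative type, and was profiled on one-colour Affymetrix arrays. The 4 groups, with 3 arrays each, were TTR cells with TRAIL, TTR cells without TRAIL, parental cells with TRAIL and parental cells without TRAIL. TTR stands for treated to resistance, and the agent, dose and length of that treatment, and whether the TTR cells are 1 clone, were not stated in the sources used here. TRAIL, a ligand of the tumour necrosis factor family that can trigger apoptosis through death receptors, was given at 100 ng per ml for 2 h. Untreated arrays were the baseline. The labels do not say that replicates were separate cultures, so the p-values speak of the spread among the 12 arrays alone, which may be technical. A tag in the sample descriptions has one form in all TTR arrays and another in all parental arrays, so any effect of it cannot be told apart from that of the line.

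Mitochondria carry their own ribosome, which translates the few messages of the mitochondrial genome, all of them for subunits of the respiratory chain and ATP synthase. Its ribosomal RNA is made inside the organelle, whereas every one of its proteins is encoded in the nucleus, translated in the cytosol and imported. Some of these proteins descend from bacterial ribosomal proteins and others were added in mitochondria, and a few are also reported to act outside the ribosome, in transcription or cell death.

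All levels below are the deposited log2 values of a row, and changes are differences between group means on that scale, with the standard error (SE) of the limma fit after ±. A gene is called when its adjusted p is under 0.05 in that fit over all 18417 genes, with n = 3 arrays per group. The 3 parental arrays with TRAIL stood apart from the rest. Across features, which do not count as independent, their correlation with any array of another group was 0.921 to 0.963, against 0.984 to 0.992 between arrays of the remaining groups and 0.989 to 0.995 within a group. Their median over all features was also higher, at 4.58 to 4.61, against 4.24 to 4.40 on the other 9 arrays. Results were therefore also computed with arrays centred at their medians, and with quantile normalization. Centring moved the median TRAIL effect of all genes in parental cells to −0.24, against 0.05 as deposited, and changes after centring are relative to that shift. Each value is relative to its array, so fewer cells with a transcript and less transcript per cell cannot be told apart. Of the markers checked for the line, VIM, CD44, AXL, CAV1 and MSN were among the highest signals and ESR1, PGR and CDH1 were low, but the keratins KRT8, KRT18 and KRT19 were high. PTPRC of blood cells (2.27) and PECAM1 of endothelium (3.97) lay below the median gene (5.11), while COL1A1 of fibroblasts (5.45) did not.

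The median level of the 73 genes was lowest in parental cells given TRAIL. It was 7.84, 7.89 and 7.82 on the arrays of TTR cells with TRAIL, against 7.90, 8.14 and 8.14 on those of untreated TTR cells. In parental cells it was 7.35, 7.10 and 7.21 with TRAIL, against 8.21, 8.09 and 8.17 without. TRAIL-treated and untreated arrays did not overlap in either line, and the distance was wider in parental cells. The median over all 18417 genes moved the other way and by less, at 5.08 to 5.10 in TTR cells with TRAIL and 5.02 to 5.05 without, and at 5.12 to 5.15 in parental cells with TRAIL and 5.02 to 5.06 without.

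**Figure D1:**
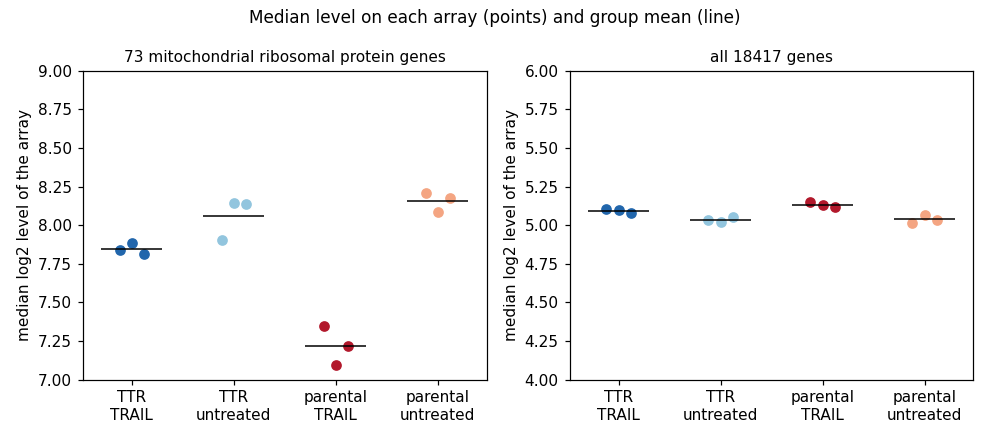
Median log2 level on each array (vertical axis) of the 73 mitochondrial ribosomal protein genes (left) and of all 18417 genes (right), with points for the 3 arrays of each group and a line at the group mean; both axes span the same range of log2 units. The members' median on the parental TRAIL arrays, 7.10 to 7.35, lies below that on every other array.

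In parental cells most of the genes fell after 2 h of TRAIL. Of the 73 genes, 57 fell, 8 rose and 8 were not called, against 58.8% of the 18417 genes tested called, 29.9% lower and 28.9% higher. Of the members, 78.1% fell. At least 2-fold falls were seen in 27 members, against 13.2% of all genes, and 0 members rose by that much, against 4.21%. The members' median change was −0.82, against 0.05 over all genes. The median stayed below 0 under each scaling but the split changed: 60 fell and 1 rose after centring (median −1.11), where 46.7% of all genes were lower and 12.6% higher. After quantile normalization 51 fell and 10 rose (median −0.65), with 31.4% of all genes lower and 19.1% higher. TRAIL-treated and untreated arrays did not overlap for 64 of the 73 genes, against 62.2% of all genes.

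The shares called depended on the strength of the array signal. By mean signal over the arrays, which does not compare transcript amounts between genes, all genes were split into 3 classes of equal size, and 63 members lay in the high class, 10 in the middle class and 0 in the low class. The members' mean signals ran from 4.74 (MRPL13), 4.95 (MRPS18C), 5.43 (MRPS9), 5.85 (MRPS31) and 5.92 (MRPS22) to 9.79 (MRPS11), 9.84 (MRPL45), 9.91 (MRPL37), 10.09 (MRPL17) and 10.12 (MRPS15). In the high class 62.4% of all genes fell and 18.4% rose, and 52 of the 63 members there fell (82.5%) and 6 rose. In the middle class 24.4% of all genes fell and 45.3% rose, and 5 of the 10 members fell and 2 rose. The members' median change in the high class was −0.87, against −0.58 for all genes of that class. The majority of all genes with high signals thus fell as well.

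**Figure D2:**
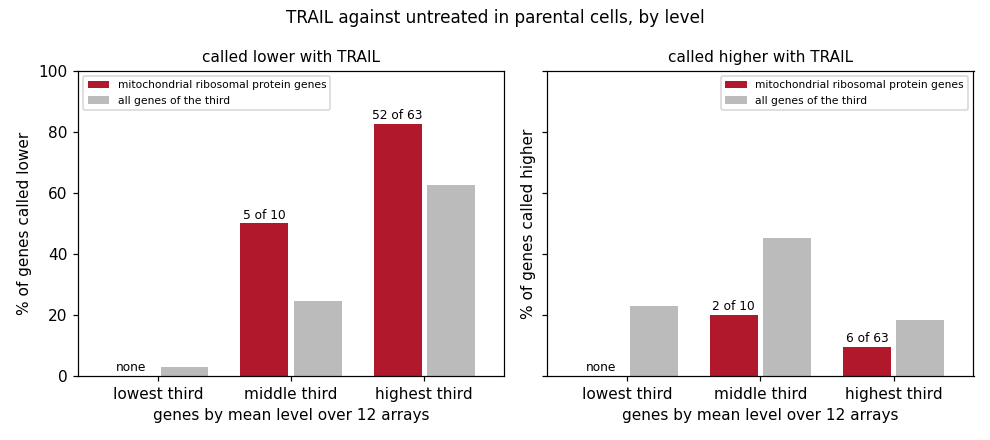
Percentage of genes called lower (left) and higher (right) with TRAIL in parental cells, in 3 equal classes of all genes by mean array signal, for the mitochondrial ribosomal protein genes (red, with their number) and for all genes of the class (grey). In the high class 52 of 63 members fell, 82.5%, against 62.4% of all genes there.

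Large-subunit proteins with a bacterial counterpart formed the largest class. Of 29 such genes 24 fell and 3 rose, with a median of −0.83. MRPL35 was at 6.85, 6.37 and 6.75 in parental cells with TRAIL, against 8.65, 8.41 and 8.67 without, a 3.78-fold fall (−1.92 ± 0.12, adjusted p = 1.22e-09). MRPL9 was at 7.75, 7.34 and 7.65 with TRAIL, against 9.39, 9.36 and 9.35 without (−1.79 ± 0.11, adjusted p = 9.37e-10), and MRPL15 at 6.15, 6.01 and 6.22, against 7.97, 7.70 and 7.84 (−1.71 ± 0.11, adjusted p = 2.27e-09). Every TRAIL array lay below every untreated array for these genes, by over 1 log2 unit. MRPL12, a stalk protein also reported to bind the mitochondrial RNA polymerase, did not pass. Its level was 9.14, 8.91 and 8.85 with TRAIL, against 8.76, 8.48 and 8.85 without (0.27 ± 0.12, adjusted p = 0.0733). The groups did not overlap, though its lowest TRAIL array and highest untreated array nearly met, and it was called higher after quantile normalization (0.49, adjusted p = 0.00341) and without parental untreated array 3 (0.35, adjusted p = 0.0432). MRPL23 was the other gene of the class that was not called (−0.18).

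Large-subunit proteins classed as specific to mitochondria included the deepest falls. Of 21 genes 15 fell, 2 rose and 4 were not called, with a median of −0.75. MRPL49 was at 7.46, 7.09 and 7.66 with TRAIL, against 9.52, 9.40 and 9.67 without, a 4.37-fold fall (−2.13 ± 0.13, adjusted p = 1.15e-09). MRPL44, which has a fold related to RNase III, was at 5.38, 5.36 and 5.51 with TRAIL, against 7.45, 7.31 and 7.46 without (−1.99 ± 0.10, adjusted p = 8.96e-11). MRPL42 was at 6.79, 6.51 and 7.12, against 8.81, 8.80 and 8.65 (−1.95 ± 0.12). The groups were separate for all of these, and the TRAIL arrays of MRPL44 spread least. MRPL45, which sits at the exit tunnel and helps hold the ribosome to the inner membrane, was at 8.87, 8.21 and 8.58 with TRAIL, against 10.51, 10.44 and 10.41 without (−1.90 ± 0.14). MRPS30, a large-subunit protein despite its name that was first described as a programmed cell death gene, fell by less, with 7.47, 7.07 and 7.21 with TRAIL, against 8.06, 8.11 and 7.97 without (−0.80 ± 0.11, adjusted p = 7.78e-06). MRPL41, reported to take part in apoptosis, did not pass, at 8.85, 8.92 and 8.71 with TRAIL, against 8.56, 8.42 and 8.71 without (0.26 ± 0.13, adjusted p = 0.102). It was called higher after quantile normalization (0.49, adjusted p = 0.00686). The other genes of this class that were not called were MRPL52 (0.11), MRPL38 (0.14) and MRPL55 (0.19).

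Most small-subunit genes fell too. Of 13 with a bacterial counterpart 10 fell and 1 rose (median −0.93), and of 10 specific to mitochondria 8 fell and 2 rose (median −0.86). MRPS35 was at 6.44, 6.07 and 6.67 with TRAIL, against 8.34, 8.30 and 8.06 without, a 3.59-fold fall (−1.85 ± 0.13, adjusted p = 5.75e-09). MRPS10 was at 7.76, 7.46 and 7.77 with TRAIL, against 9.15, 9.12 and 9.11 without (−1.46 ± 0.10), and MRPS14 at 6.97, 6.77 and 6.98, against 8.21, 7.97 and 8.10 (−1.19 ± 0.10). The untreated arrays of MRPS10 lay within a few hundredths of one another, and no TRAIL array came near them. MRPS27, a pentatricopeptide repeat protein that binds RNA, fell with a wider spread, at 8.31, 7.29 and 7.98 with TRAIL, against 9.43, 9.34 and 9.31 without (−1.50 ± 0.17). MRPS2 was at 8.05, 7.74 and 7.71, against 9.03, 8.78 and 9.01 (−1.10 ± 0.11). MRPS7 (−0.21) and MRPS9 (−0.03) were the small-subunit genes that were not called.

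The paralogues MRPS18A, MRPS18B and MRPS18C, which are related to one bacterial protein, all fell. MRPS18C was classed here as the counterpart of that protein and the other paralogues as specific to mitochondria. MRPS18B was at 7.14, 6.92 and 7.06 with TRAIL, against 8.24, 8.12 and 8.24 without (−1.17 ± 0.11, adjusted p = 1.14e-07), and its 3 rows held identical values. MRPS18C was at 4.60, 4.19 and 4.78, against 5.11, 5.17 and 4.98 (−0.56 ± 0.12). MRPS18A, which belongs to the large subunit, was at 8.89, 8.59 and 8.74, against 9.12, 8.95 and 9.31 (−0.39 ± 0.12, adjusted p = 0.0127). Its call was lost after quantile normalization (adjusted p = 0.286), without parental untreated array 3 (0.0707) and without parental TRAIL array 2 (0.0592).

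The rises were at most 0.89, and 7 of the 8 were not called after centring. The exception was MRPL36, a zinc-binding protein of the large subunit. It was at 10.19, 10.37 and 10.33 with TRAIL, against 9.28, 9.33 and 9.60 without, a 1.85-fold rise (0.89 ± 0.12, adjusted p = 5.08e-06) that stayed at 0.60 after centring. All TRAIL arrays lay above all untreated arrays. The gene has a second row with a lower signal, which moved the other way (−0.31), so the rise belongs to one of its rows. MRPL57 was at 6.47, 6.63 and 6.32 with TRAIL, against 6.11, 5.78 and 6.02 without (0.50 ± 0.12, adjusted p = 0.00207, and 0.21 after centring), and MRPL54 at 6.57, 6.64 and 6.35, against 5.95, 5.85 and 6.26 (0.50 ± 0.16, and 0.21 after centring). These groups did not overlap, though the call for MRPL54 was lost without parental untreated array 2 (adjusted p = 0.0642) or parental TRAIL array 2 (0.0541). MRPL32, whose processing by an inner-membrane protease gates ribosome assembly in yeast and mouse, was at 8.61, 8.71 and 8.55, against 8.25, 8.19 and 8.19 (0.41 ± 0.10). The other rises were MRPL27 (0.41), MRPS25 (0.38), MRPS12 (0.35), which lies at the decoding site, and MRPS26 (0.26). After centring these 5 stood between −0.03 and 0.12, with MRPS26 alone below 0. The call for MRPS12 was also lost without parental untreated array 2 (adjusted p = 0.183), parental TRAIL array 1 (0.145) or parental TRAIL array 3 (0.064).

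The median span was longer for members that fell than for those that rose. By the RefSeq gene table, the 57 members that fell spanned a median of 11055 bases, the 8 that were not called 4824.5 bases and the 8 that rose 3967 bases. Across the 73 members span and change had a rank correlation of −0.375, against −0.291 across the 18389 genes with a span. Signal and change had −0.298 across members, against −0.342 across all genes. These are descriptions across genes of the same 6 arrays, and the members' values were close to those of the table as a whole.

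The promoters of the members were read from RefSeq (assembly GRCh38.p14), which held one for 66 of the 73 genes, each with 250 bases before and 50 after the start of the gene. The letters CCGGAAG, the core bound by ETS-family factors such as GABPA, occurred on either strand in 28 of the 66 (42.4%), against 14.6% of the promoters of tested genes and 10.7% of all 27305. The letters AAGATGGC, the core bound by YY1, occurred on either strand in 18 (27.3%), against 4.07% and 3.03%. At least one of them was in 39 promoters and both were in 7, and no matches of the different cores overlapped. The core of NRF1 was in 1 (1.52%, against 1.80% of tested genes), or in 9 with its middle letters left free (13.6%, against 12.46% of tested genes), and the SP1 core GGGCGG was in 39 (59.1%, against 59.98%). A match is a description of the letters and not a binding site. ETS matches were present among members that fell (22 of 51), were not called (2 of 7) and rose (4 of 8), and YY1 matches likewise (12 of 51, 3 of 7 and 3 of 8).

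ETS cores often lay close to the start. One lay within the 60 bases before it in 16 of 66 members (24.24%), against 4.395% of all promoters. For these 60 bases the share among tested genes alone was not computed. The stretches below are these 60 bases for the members that fell by at least 1 log2 unit (first 5) and those that rose (last 3), shown because members of both directions carry the same letters. Capitals mark CCGGAAG, or CTTCCGG where the core is on the other strand, and each is written 5′ to 3′ along the gene's strand with GRCh38.p14 coordinates.
MRPS10 (chr6:42217862-42217921, minus strand): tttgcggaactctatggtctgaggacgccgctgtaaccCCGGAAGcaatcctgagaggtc
MRPL20 (chr1:1407294-1407353, minus strand): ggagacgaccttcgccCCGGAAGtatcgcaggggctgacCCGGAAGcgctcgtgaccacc
MRPS23 (chr17:57850045-57850104, minus strand): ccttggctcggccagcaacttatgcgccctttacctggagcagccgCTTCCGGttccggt
MRPL58 (chr17:75012610-75012669, plus strand): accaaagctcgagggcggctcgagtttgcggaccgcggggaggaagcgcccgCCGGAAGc
MRPL3 (chr3:131502972-131503031, minus strand): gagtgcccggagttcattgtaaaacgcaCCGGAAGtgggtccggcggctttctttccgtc
MRPS26 (chr20:3045992-3046051, plus strand): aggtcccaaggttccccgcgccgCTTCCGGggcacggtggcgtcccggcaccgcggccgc
MRPL27 (chr17:50373185-50373244, minus strand): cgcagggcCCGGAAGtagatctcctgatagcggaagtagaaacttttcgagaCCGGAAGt
MRPL54 (chr19:3762622-3762681, plus strand): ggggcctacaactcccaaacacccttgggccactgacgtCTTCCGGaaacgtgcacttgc
MRPL20 and MRPL27 carry it at 2 places in this window.

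YY1 cores in the gene's own direction clustered just after the start, where AAGATGGC holds an ATG. They occurred in the 50 bases after the start in 13 of 66 members (19.7%), against 1.388% of all promoters. The share among tested genes alone was not computed for this window. Of the 13 members, MRPL38 (0.14) and MRPS7 (−0.21) were not called with TRAIL in parental cells, while MRPL50 (−0.34) and MRPS18A (−0.39) fell. They are not shown. The stretches of up to 24 bases below show this core in the members that fell by at least 0.7 log2 units. Capitals mark the core, with 8 bases on each side where the window allows.
MRPL42 (chr12:93467514-93467537, plus strand): attgaaacAAGATGGCgggttcgt
MRPL45 (chr17:38297173-38297196, plus strand): gcgggaacAAGATGGCagccccca
MRPL46 (chr15:88467365-88467388, minus strand): gagaacgaAAGATGGCggcgcccg
MRPS27 (chr5:72320209-72320232, minus strand): tacgctccAAGATGGCtgcctcca
MRPS10 (chr6:42217837-42217860, minus strand): ggaccggcAAGATGGCggcgcgga
MRPL20 (chr1:1407263-1407286, minus strand): acccgggcAAGATGGCagcggcgc
MRPS18B (chr6:30617855-30617878, plus strand): cgtacgtcAAGATGGCggcgtctg
MRPL22 (chr5:154941100-154941122, plus strand): gagggcgaAAGATGGCggcggca
MRPS30 (chr5:44808952-44808975, plus strand): cgcgggcaAAGATGGCggcggcca
The first base of the core lay 9 bases into the gene in MRPL42 and MRPL46, 10 in MRPS10, 14 in MRPL45 and MRPS30, 16 in MRPL20, 17 in MRPS27, 24 in MRPS18B and 36 in MRPL22.

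In TTR cells few of the genes were called with TRAIL. By limma 3 members fell (4.11%), 0 rose and 70 were not called, against 5.82% of all genes called, 2.55% lower and 3.27% higher. The unadjusted p was under 0.05 for 33 members, against 3794 of all 18417 genes. The median change was −0.23, against −0.01 over all genes. In the high signal class it was −0.23 for the 63 members, against −0.10 for all genes of that class. Below 0 lay 67 of the 73, against 9477 of all 18417 genes. The TRAIL-treated and untreated arrays did not overlap for 38 members, against 27.5% of all genes. MRPL44 was at 6.80, 6.85 and 6.99 with TRAIL, against 7.40, 7.32 and 7.53 without, a 1.45-fold fall (−0.54 ± 0.10, adjusted p = 0.00328). MRPL49 was at 9.05, 8.99 and 9.13 with TRAIL, against 9.42, 9.66 and 9.72 without (−0.54 ± 0.13, adjusted p = 0.0265). The groups were separate for both, and MRPL44 was called without any one array. MRPS23 was at 6.85, 6.68 and 6.78, against 7.09, 7.30 and 7.62 (−0.57 ± 0.15, adjusted p = 0.039), also without overlap, with untreated array 3 standing highest. The call for MRPL49 was lost without untreated array 2 or 3 or TRAIL array 1 or 2 (adjusted p = 0.0832 to 0.115). That for MRPS23 was lost after quantile normalization (adjusted p = 0.0538), with every feature fitted (0.0731) and without any TTR array other than untreated array 1.

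The number called in TTR cells rests on the fit and on single arrays. Replicate numbers paired these arrays by the check described under the processing, and when the model held only the 2 TTR groups and blocked on replicate number, 16 members fell and 0 rose, with 8.41% of all genes lower and 6.09% higher in that fit. After centring 28 fell and 0 rose (median −0.33), with 1943 of all 18417 genes lower and a median of −0.11 over all genes. The count of 3 became 10 without untreated array 1, 2 without TRAIL array 3 and 1 without untreated array 2 or 3 or TRAIL array 1 or 2. The shares of all genes called in those fits are not given here, so these counts are not read as results about the members. Among the members with the next smallest p, MRPL13 (−0.37, adjusted p = 0.0534), MRPL35 (−0.41, adjusted p = 0.0585) and MRPS10 (−0.33, adjusted p = 0.0641) passed in the blocked fit (adjusted p = 0.03, 0.0135 and 0.0294). MRPS14 (−0.28), MRPS18B (−0.29), MRPS18C (−0.28), MRPS30 (−0.19), MRPS18A (−0.13), MRPS12 (−0.09), MRPL12 (−0.08) and MRPL41 (−0.03) did not pass, with adjusted p from 0.111 to 0.944. MRPL36 was at 9.57, 9.56 and 9.73 with TRAIL, against 9.37, 9.14 and 9.52 without (0.28 ± 0.12, adjusted p = 0.175).

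**Figure D3:**
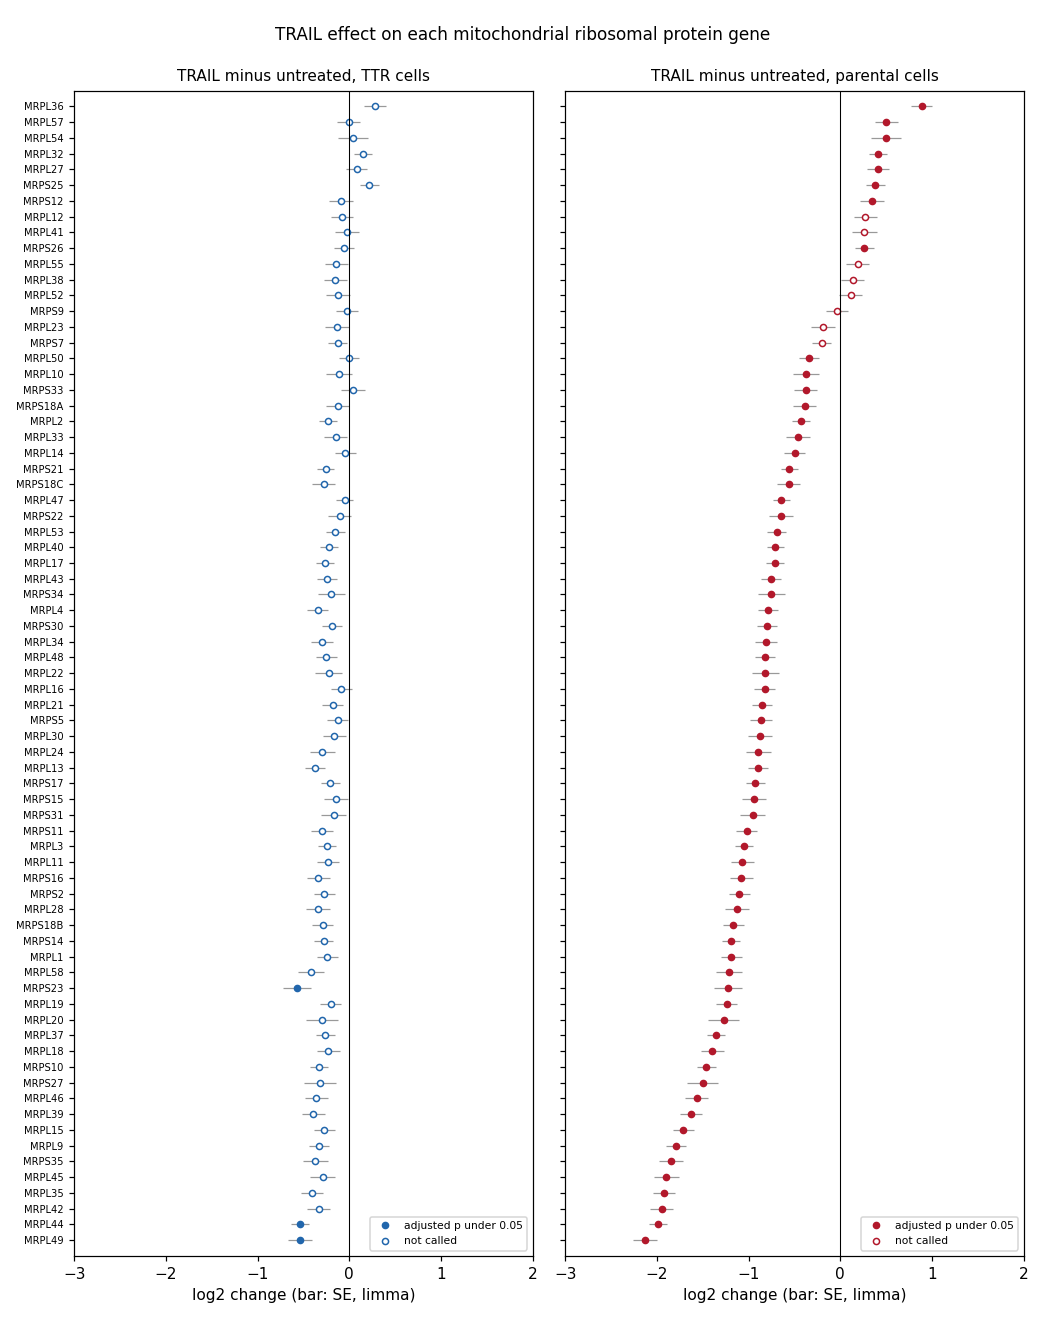
Log2 change with TRAIL against untreated (horizontal axis) of each of the 73 genes in TTR cells (left) and parental cells (right), in one order, that of the parental change; bars are the SE of the limma fit, filled points were called and open points were not. Parental changes run from −2.13 to 0.89 and TTR changes from −0.57 to 0.28.

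The effects of TRAIL in the lines were compared directly, as the change in TTR cells minus that in parental cells. It was called above 0 for 49 members and below 0 for 2, against 37.2% of all genes called, 22.9% above and 14.3% below. The median difference was 0.59, against −0.03 over all genes. In the high signal class 53.5% of all genes were called above 0 and 10.7% below, with a median of 0.50. Of the 63 members there 45 were called above and 1 below, with a median of 0.67. Calls were above 0 for 52 and below for 1 after centring (median 0.78), where 29.4% of all genes were above and 6.92% below. They were above for 38 and below for 7 after quantile normalization (median 0.46), with 21.4% of all genes above and 12.5% below. All 51 called members had the change nearer 0 in TTR cells, where 3 of them were called, while TRAIL was called for all of them in parental cells. The same held for 6790 of the 6852 genes of the whole table called for the difference, which likewise had the change nearer 0 in TTR cells. Of the 57 members that fell in parental cells, 56 lay below 0 in TTR cells, with a median of −0.26 there and −0.94 in parental cells, beside 4901 of the 5508 genes of the whole table that fell. Of the 8 that rose in parental cells, 5 lay above 0 in TTR cells, beside 4345 of 5319 in the whole table.

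The largest of these differences among the members were those of MRPL42 (1.61 ± 0.17, adjusted p = 3.61e-06) and MRPL45 (1.61 ± 0.19, adjusted p = 9.13e-06). MRPL42 was at 8.22, 8.18 and 8.17 in TTR cells with TRAIL, against 8.56, 8.51 and 8.50 without (−0.34, not called), beside −1.95 in parental cells. Its TTR groups did not overlap either. The difference was 1.59 ± 0.19 for MRPL49, 1.51 ± 0.17 for MRPL35, 1.47 ± 0.19 for MRPS35, 1.46 ± 0.15 for MRPL9, 1.45 ± 0.14 for MRPL44, 1.44 ± 0.16 for MRPL15 and 1.13 ± 0.14 for MRPS10, with adjusted p from 1.30e-06 to 1.60e-05. MRPS27 (1.18), MRPS14 (0.91), MRPS18B (0.87), MRPS2 (0.83) and MRPS30 (0.61) also differed. MRPS30 was lost after quantile normalization (0.38, adjusted p = 0.0652). MRPS12 (−0.43), MRPL12 (−0.35), MRPL41 (−0.29), MRPS18C (0.28) and MRPS18A (0.26) did not pass. MRPS12 and MRPL12 were each called below 0 in 3 of 19 alternatives. Quantile normalization was among them (−0.67, adjusted p = 0.00834 for MRPS12, and −0.54, adjusted p = 0.0272 for MRPL12). The members called below 0 as deposited were MRPL36 (−0.61 ± 0.16, adjusted p = 0.00764), which stood at −0.20 and was not called with its rows averaged (adjusted p = 0.297), and MRPL57 (−0.51 ± 0.17, adjusted p = 0.0288).

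**Figure D4:**
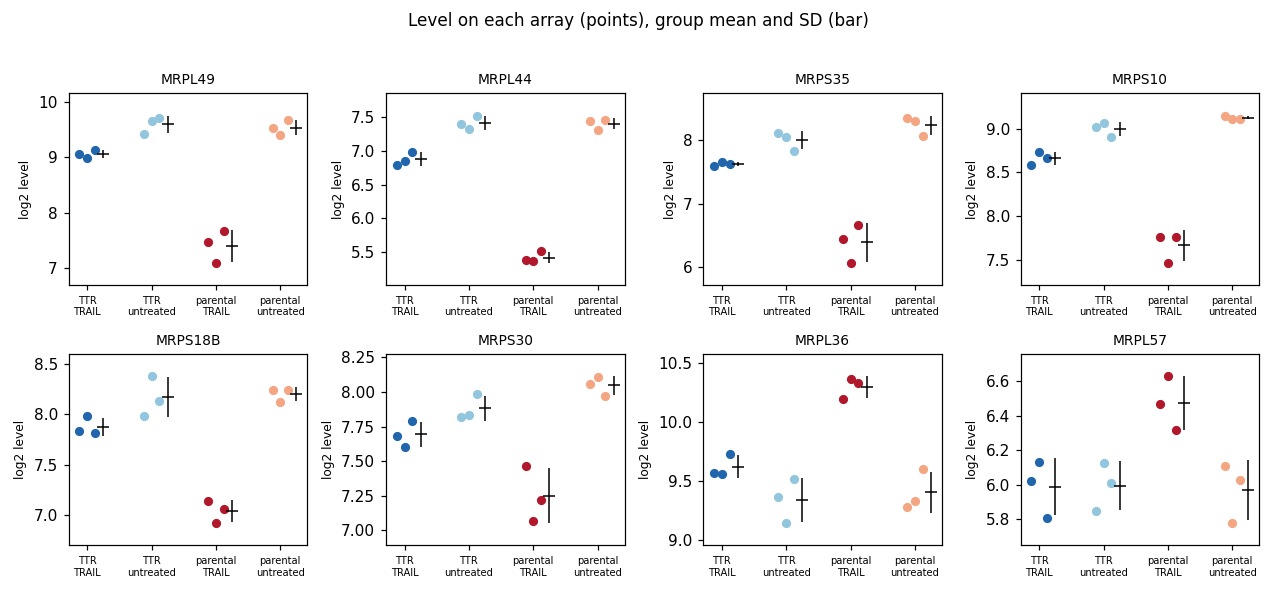
Log2 level of 8 members on each array (points) in TTR cells with and without TRAIL and parental cells with and without TRAIL, with the group mean and SD beside the points (n = 3 arrays each); the vertical axes differ between genes and do not start at 0. For MRPL49, MRPL44, MRPS35, MRPS10, MRPS18B and MRPS30 the parental TRAIL arrays lie below all others, and for MRPL36 and MRPL57 they lie above all others.

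Before TRAIL the lines differed at few of these genes. In untreated TTR cells 5 members were lower than in untreated parental cells and 0 higher by limma, against 7.11% of all genes called, 3.47% lower and 3.64% higher. The members' share called, 6.85%, was near that of all genes, and their median difference was −0.06, against −0.01 over all genes. The unadjusted p was under 0.05 for 9 members, against 3475 of all 18417 genes. MRPS26, a protein of the small subunit specific to mitochondria, was at 6.90, 6.90 and 6.93 in untreated TTR cells, against 7.70, 7.53 and 7.49 in untreated parental cells (−0.66 ± 0.10, adjusted p = 8.85e-04). MRPS21 was at 8.34, 8.50 and 8.40, against 8.97, 8.81 and 8.92 (−0.49 ± 0.09, adjusted p = 0.00352). TTR arrays lay below parental arrays without overlap for both, and both calls held with any one array left out. MRPL47, which lies at the exit tunnel, was at 8.61, 8.41 and 8.50, against 9.05, 8.94 and 8.82 (−0.43 ± 0.10, adjusted p = 0.0106), and MRPL10, at the base of the stalk that carries MRPL12, at 6.49, 6.64 and 6.39, against 7.13, 7.03 and 7.10 (−0.58 ± 0.14, adjusted p = 0.0206). Those groups were separate too, but MRPL47 was lost without parental untreated array 1 (adjusted p = 0.0644) or TTR untreated array 2 (0.0634). MRPL10 was lost without any one of the parental untreated arrays (0.0512 to 0.0813) or without TTR untreated array 3 (0.0772), and also after quantile normalization (0.054) and with every feature fitted (0.0684). MRPS33 was at 6.54, 6.47 and 7.01, against 7.13, 7.13 and 7.08 (−0.44 ± 0.13, adjusted p = 0.0486), with TTR array 3 close to the parental arrays, and it was lost after centring (0.0587) and without any array of these groups except TTR untreated array 3. Members with reported roles outside the ribosome, and the paralogues, did not pass here: MRPL12 (−0.15), MRPL41 (0.17), MRPS12 (−0.0018), MRPS18A (−0.31), MRPS18B (−0.03), MRPS18C (0.15) and MRPS30 (−0.17). The count was 2 without parental untreated array 1 and 3 without parental untreated array 2 or 3 or TTR untreated array 2. The shares of all genes called in those fits are not given. It was 3 after quantile normalization, with 539 of all 18417 genes lower and 633 higher.

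**Figure D5:**
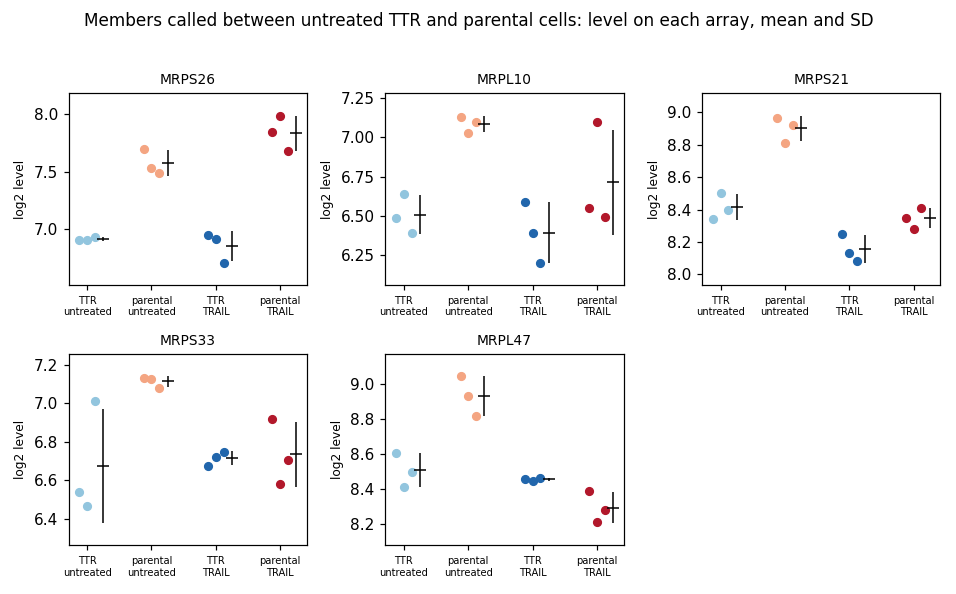
Log2 level of the 5 members called between untreated TTR and untreated parental cells on each array (points), with the group mean and SD beside the points (n = 3 arrays each); the vertical axes differ between genes and do not start at 0. For MRPS26 all 6 TTR arrays, with or without TRAIL, lie at 6.71 to 6.95, below the 6 parental arrays at 7.49 to 7.98.

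With TRAIL present, the lines stood far apart. In TTR cells with TRAIL 49 members were higher and 9 lower than in parental cells with TRAIL, against 54.4% of all genes called, 28.0% higher and 26.4% lower. This comparison shares its arrays with the TRAIL effects above and is not separate evidence. The median difference was 0.51, against −0.07 over all genes. At least 2-fold higher were 14 members (10.4% of all genes), and the groups did not overlap for 63 members (60.2% of all genes). In the high signal class 59.4% of all genes were higher and 17.2% lower, with a median of 0.48. Of the 63 members of that class 44 were higher and 7 lower, with a median of 0.55. After centring 54 of the 73 members were higher and 2 lower (median 0.71), with 37.1% of all genes higher and 13.0% lower (median 0.14). After quantile normalization 37 were higher and 12 lower (median 0.40), with 27.8% of all genes higher and 19.4% lower. MRPL49 was at 9.05, 8.99 and 9.13 in TTR cells, against 7.46, 7.09 and 7.66 in parental cells (1.66 ± 0.13, adjusted p = 3.00e-08), and MRPL15 at 7.84, 7.79 and 7.61, against 6.15, 6.01 and 6.22 (1.62 ± 0.11). MRPL9 (1.60), MRPL45 (1.48), MRPL35 (1.48), MRPL44 (1.46), MRPL42 (1.38) and MRPL39 (1.30) followed. The lower members were led by MRPS26, at 6.95, 6.91 and 6.71 in TTR cells, against 7.84, 7.98 and 7.68 in parental cells (−0.98 ± 0.10, adjusted p = 7.04e-07). MRPL36 (−0.68), MRPL12 (−0.50), MRPL54 (−0.50), MRPL57 (−0.48), MRPS12 (−0.43), MRPL32 (−0.29), MRPS25 (−0.37) and MRPL27 (−0.36) were also lower. The other row of MRPL36 stood at 0.46 here, and with its rows averaged the gene was not called (−0.11, adjusted p = 0.378). The call for MRPL54 was lost without parental TRAIL array 2 (adjusted p = 0.056), and those for MRPS12 (0.0535) and MRPL27 (0.0651) without parental TRAIL array 1. MRPS18B (0.84), MRPS30 (0.44) and MRPS18C (0.43) were higher in TTR cells, though MRPS30 was not called after quantile normalization (0.23, adjusted p = 0.093), while MRPS18A (−0.05, adjusted p = 0.749) and MRPL41 (−0.12, adjusted p = 0.469) did not pass. After centring MRPS26 and MRPL36 alone of the 9 were still called lower.

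Partners of the mitochondrial ribosome were set beside its proteins, from lists drawn up for this purpose. With TRAIL in parental cells 29.9% of all genes fell and 28.9% rose, and in the high signal class 62.4% fell and 18.4% rose. In TTR cells 2.55% of all genes fell and 3.27% rose. Whether any list differed from these shares was not tested. Of 5 measured other proteins bound to the mitochondrial ribosome, 4 fell and 1 rose with TRAIL in parental cells, and 0 of 5 were called in TTR cells. DAP3, a GTP-binding protein of the small subunit also known as a mediator of cell death, was at 7.20, 6.71 and 7.14 with TRAIL, against 8.02, 7.84 and 7.97 without (−0.92 ± 0.13, adjusted p = 1.32e-05). In TTR cells it was at 7.64, 7.67 and 7.73, against 7.71, 8.11 and 8.07 (−0.29, not called), and the effects differed (0.64 ± 0.19, adjusted p = 0.0127), a call lost after quantile normalization (0.44, adjusted p = 0.0915). TTR minus parental, DAP3 stood at 0.02 without TRAIL, not called, and at 0.66 with TRAIL (adjusted p = 4.44e-04). The insertase OXA1L, which passes new proteins into the inner membrane, fell by 1.51 in parental cells, and CHCHD1 by 0.67. Of 11 mitochondrial translation factors 9 fell and 1 rose in parental cells. Among the falls were the formyltransferase MTFMT (−1.54), the elongation factor exchange protein TSFM (−1.53) and the initiation factor MTIF2 (−1.21). In TTR cells 0 of the 11 were called, and 3 were at an unadjusted p under 0.05, against 3794 of all 18417 genes. Of 25 ribosome assembly factors 13 fell and 4 rose, with the RNA chaperone ERAL1 (−1.40), FASTKD2 (−1.62) and the GTPase GTPBP10 (−1.57) among the falls. Of 21 mitochondrial aminoacyl-tRNA synthetases and their relatives 14 fell and 1 rose. In TTR cells 1 assembly factor, TRMT61B (−0.57), and 1 synthetase, NARS2 (−0.42), fell, and 0 of either list rose. Both calls were unstable: that for TRMT61B was lost in 6 of 16 alternatives (adjusted p up to 0.193) and that for NARS2 in 5 of 16 (up to 0.128), among them leaving out any one TTR array other than untreated array 1.

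Genes that make and handle mitochondrial RNA and DNA moved in both directions. Of 13 measured, 7 fell (53.8%) and 4 rose (30.8%) with TRAIL in parental cells, against 29.9% of all genes lower and 28.9% higher. The helicase SUPV3L1 (−2.03) and the mRNA-binding protein LRPPRC (−1.76) fell, while POLG2 (1.49), a subunit of the DNA polymerase, rose. Among 9 regulators of mitochondrial biogenesis 4 rose (44.4%) and 2 fell (22.2%), beside the same shares of all genes. The members that fell were GABPA (−1.26) and GABPB1 (−1.86), the subunits of an ETS-family factor known to act on genes of respiration, and MYC rose (1.83). In TTR cells POLG2 (0.56) and MYC (0.53) rose and SUPV3L1 fell (−0.40), the only genes of these lists called there. The call was lost in 5 of 16 alternatives for POLG2 (adjusted p up to 0.0849), in 3 for SUPV3L1 (up to 0.0678) and in 0 for MYC. In untreated TTR cells TUFM (−0.54), the elongation factor, TWNK (−1.004), the DNA helicase, and TFB2M (−0.77), a transcription factor of the organelle, were lower than in untreated parental cells, and MYC was higher (0.80).

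The genes for cytosolic ribosomal proteins were divided, in shares near those of all genes but not near those of the high signal class. Of 66 measured, 21 fell (31.8%) and 16 rose (24.2%) with TRAIL in parental cells, near the 29.9% and 28.9% of all genes. Their median change was 0.02, against 0.05 over all genes and −0.82 for the mitochondrial genes. Their median signal, 10.9, lay within the high class, where 62.4% of all genes fell and 18.4% rose (median change −0.58). After centring 35 fell and 5 rose, with a median of −0.27, against −1.11 for the mitochondrial genes. Of all 18417 genes, 8608 were lower and 2328 higher after centring. In TTR cells 1 rose and 0 fell, against 3.27% of all genes higher and 2.55% lower. Falls of at least 2-fold were found in 1 of the 66, against 27 of the 73 mitochondrial genes and 13.2% of all genes. The difference between the families was not tested.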

How the data were processed

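Total RNA was hybridised to 12 one-colour arrays, 3 in each of 4 groups taken from the sample titles. Values were deposited as log2. Per the submitters' processing notes, they were made with RMA in Affymetrix Power Tools, and their versions and settings were not stated in the sources used here. RMA corrects the background, normalizes arrays to one another and summarises probes, so a value is relative to its array, and the number of arrays limits the precision.

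Of 33252 features, 19460 named 1 gene in the platform annotation, 1754 named several and 12038 none. RefSeq's list of genes matched 19429 of those with 1 gene, with 0 symbols changed, and the row with the highest mean was kept for each of 18417 genes. A linear model with 4 group means was fitted to all 12 arrays by lmFit and eBayes of limma 3.58.1 (R 4.3.3), and p-values were adjusted over all genes by Benjamini-Hochberg, two-sided. With 3 arrays against 3, an exact permutation test of a single gene cannot go below 0.1. The fit was tested on simulated data. Python 3.11.15 with matplotlib 3.10.9 drew the figures. Promoters were searched on both strands.

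Replicate numbers were checked by correlating the deviations of same-numbered arrays from their group means. The descriptions also hold a code that same-numbered arrays of all groups share, written a digit shorter on one array, and the labels do not say what it marks. In the TTR groups the correlations were 0.32, 0.15 and 0.40, so the numbers were taken to pair those arrays, and in no other comparison were all above 0.1. Alternatives were median centring, quantile normalization, array weights, the mean of a gene's rows, a filter on low values, fitting every feature, fitting only the compared groups or leaving out the parental TRAIL arrays, the replicate block, and leaving out each array. The members, lists and tests were chosen with earlier results of these data known. Genes were named by rule: the largest non-overlapping changes of each comparison, the smallest p of the difference and of each list, the extremes of signal, and members with a role outside the ribosome or a paralogue.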

Additional observations from a re-analysis of the deposited data

Results flagged for a closer look

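The effect of TRAIL differed between the lines for 51 of the 73 genes, against 37.2% of all genes. This is by limma's test of the difference itself (TTR minus parental), adjusted over all genes. In the high signal class, which held 63 of the 73, 53.5% of all genes were called above 0 and 10.7% below. Among the named large-subunit genes the log2 difference was 1.61 for MRPL42 and for MRPL45, 1.59 for MRPL49, 1.51 for MRPL35, 1.46 for MRPL9, 1.45 for MRPL44, 1.44 for MRPL15, 1.24 for MRPL39, 1.10 for MRPL37, 0.59 for MRPL47, 0.53 for MRPL13 and 0.45 for MRPL17. It was −0.61 for MRPL36, the kept row of a gene whose other row gave 0.21, and −0.51 for MRPL57.

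Among genes with an MRPS name it was 1.47 for MRPS35, 1.18 for MRPS27, 1.13 for MRPS10, 0.91 for MRPS14, 0.87 for MRPS18B, 0.83 for MRPS2, 0.80 for MRPS15, 0.79 for MRPS31, 0.73 for MRPS11, 0.65 for MRPS23, 0.61 for MRPS30 and 0.54 for MRPS22. The parental arrays with TRAIL, which enter every one of these values, stood apart from the other 9 arrays, and the part of this in the differences was not tested.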

How the results depend on the processing

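Among the genes followed over all alternatives, 0 were called in the opposite direction, but MRPS26, higher with TRAIL in parental cells, stood at −0.03 after centring, and the untested median between untreated lines crossed 0 with 1 array left out. For the 73 genes in parental cells, the median TRAIL effect was −1.11 after centring and −0.65 after quantile normalization, and 61 to 64 genes were called, with medians of −0.91 to −0.76, when 1 array was left out. With the replicate number as a block 65 were called over all 12 arrays and 64 over the compared groups alone.

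In TTR cells the count of 3 was 28 after centring (median −0.33), 30 with array weights (29 lower and 1 higher), 8 with the replicate block over all arrays, 16 with the block over the TTR groups alone, 9 with those groups alone, 5 without the genes of the low signal class and 11 without the parental TRAIL arrays. The share of all genes called in those fits, in the same order, was 13.0%, 17.4%, 8.51%, 14.5%, 7.12%, 9.75% and 9.28%, against 5.82%. It was 1 to 10 with 1 array left out (medians −0.26 to −0.19).

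Between untreated lines the count of 5 was 3 after quantile normalization, where 539 of all 18417 genes were lower and 633 higher. It was 3 with every feature fitted, and 2 to 4 with 1 array left out, with medians of −0.12 to 0.01. With TRAIL, the median difference between lines was 0.71 after centring and 0.40 after quantile normalization, and 53 to 58 genes were called with 1 array left out (medians 0.40 to 0.57). The difference of the TRAIL effects had a median of 0.78 after centring and 0.46 after quantile normalization, and 45 to 52 were called with 1 array left out (medians 0.52 to 0.68). The share of all genes called in the same fit is not given for the counts with 1 array left out. Nor is it given for the count with every feature fitted or for the block counts in parental cells. Those counts are not read as results about the members. The block changed the counts of the other comparisons by less than 1.5 times. Over the members named, 1516 of 1609 gene and setting combinations stayed on their side of the threshold, called or not, while 58 lost a call and 35 gained one. The causes were not tested. Line and description tag cannot be told apart, and 3 arrays a group limit the precision.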
